A study of Arabidopsis thaliana with 32 samples.

Results

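The central transposable elements (TEs) of Arabidopsis chromosomes 1, 3 and 5 were followed across 4 genotypes in leaf RNA. They were chosen by row identifier: AT1TE40000 to AT1TE58000, AT3TE45000 to AT3TE67000 and AT5TE34500 to AT5TE53000, which are windows around the centromeres in a table whose identifier numbers follow position. The windows held 9682 annotated TEs, of which 6460 had no count in any library. The 848 TEs with 10 or more counts summed over the 8 libraries were kept, out of 31189 TEs in the whole table. Of these 848, chromosome 1 held 208, chromosome 3 held 384 and chromosome 5 held 256. Their total counts over the 8 libraries had a median of 34, with a lowest value of 10 and a highest of 18988. Just outside the threshold lay 51 TEs with 9 counts, which summed to 120 counts in atxr5/6 gcn5, 245 in atxr5/6, 61 in gcn5 and 33 in wild type. Just inside it lay 49 TEs with 10 counts, which summed to 112 counts in atxr5/6 gcn5, 252 in atxr5/6, 72 in gcn5 and 54 in wild type. The table names each TE by identifier only, so family, length and sequence were not analysed here, and levels are not compared between TEs.

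TEs around plant centromeres are packed into heterochromatin and are normally kept silent by DNA methylation, methylated histone H3 lysine 9 and monomethylated histone H3 lysine 27. ATXR5 and ATXR6 are the methyltransferases that place monomethylation on lysine 27 of the replication-dependent histone H3.1, and in their absence heterochromatic TEs are transcribed and heterochromatin is replicated in excess. GCN5, also called HAG1, is a histone acetyltransferase that acts on lysines of histone H3 and is known mainly as a coactivator of genes.

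The groups were the atxr5/6 gcn5 triple mutant, the double mutant atxr5/6, the single mutant gcn5 and wild type, all of ecotype Col-0, with leaves of 3-week-old plants grown under long days and 2 RNA-seq libraries per genotype. Designations of the mutant alleles are not given in the sources used here, nor whether the 2 libraries of a genotype came from separate plants, so p-values measure only the spread between these samples, which may be technical. The gene table summed to between 24860332 and 43969417 counts per library and the TE table to between 75865 and 171823. A count of 3, used as the floor, equals 0.0652 to 0.122 CPM, counts scaled to library size, depending on the library. Genes of leaf photosynthesis were abundant in the 8 libraries, but all 4 leaf markers were lower, without overlap, in the 4 libraries with the gcn5 label. RBCS1A, the small subunit of Rubisco, was at 2380 to 3130 CPM in the libraries with that label against 3690 to 4430 CPM in those without it, and RCA, the Rubisco activase, at 1790 to 2060 against 2770 to 3680 CPM. CAB1, a chlorophyll-binding antenna protein, was at 4980 to 5990 against 7570 to 9510 CPM, and CA1, a carbonic anhydrase, at 183 to 241 against 514 to 728 CPM. Organelle genes held 44.3% to 47.6% of gene counts with the gcn5 label and 54.6% to 58.1% without it. The flower identity genes AP1, AP3, PI and AG stayed at or below 1.84 CPM, and the seed storage genes SESA2 and CRA1 at or below 0.0435 CPM. Ribosomal DNA (rDNA) features held 13.3% to 21.6% of gene counts in the 4 libraries with the gcn5 label and 0.293% to 2.37% in the 4 without it. The leaf marker levels and both shares therefore cannot be told apart from the gcn5 label, and their part in the gcn5 results was not tested. The rDNA values are set beside results that also differ by this label. In these bulk samples, fewer cells of a type and less RNA per cell cannot be told apart.

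In wild type most central TEs were at or near 0. At 3 counts or fewer in each library were 307 of the 848 in atxr5/6 gcn5 (36.2%), 188 in atxr5/6 (22.2%), 512 in gcn5 (60.4%) and 608 in wild type (71.7%). No count in either library was found for 31 TEs in atxr5/6 gcn5, 11 in atxr5/6, 211 in gcn5 and 300 in wild type. A level of at least 0.5 CPM in both libraries was reached by 152 TEs in atxr5/6 gcn5, 226 in atxr5/6, 109 in gcn5 and 73 in wild type. The genotype with the highest mean CPM was atxr5/6 for 469 of the 848 TEs (55.3%), gcn5 for 177, atxr5/6 gcn5 for 137 and wild type for 65. The 848 were kept by their summed counts, and many passed through the genotypes where they were high, so these counts are a description. A TE at or under the floor of 3 counts was not detectable at this depth, which does not show that it was silent.

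Summed over the 848 TEs, the level was 651 and 576 CPM for atxr5/6 gcn5, 879 and 883 for atxr5/6, 646 and 693 for gcn5 and 298 and 312 for wild type. All 3 mutants thus lay above wild type in both libraries, and the 2 atxr5/6 libraries lay above all others. These sums made up 19.1% and 18.4% of all TE counts in atxr5/6 gcn5, 23.5% in both atxr5/6 libraries, 18.2% and 18.5% in gcn5, and 11.1% and 10.7% in wild type. The mean sum was 2.89 times that of wild type in atxr5/6, 2.19 times in gcn5 and 2.01 times in atxr5/6 gcn5. Sums over the members have no test, because a few TEs can carry them.

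A single block of the chromosome 3 window changed this picture. The block, AT3TE57000 to AT3TE58999, holds 128 of the 848 TEs and was singled out after its values were seen. It summed to 196 and 142 CPM for atxr5/6 gcn5, 58.0 and 69.5 for atxr5/6, 301 and 353 for gcn5 and 7.89 and 12.1 for wild type. The other 720 TEs summed to 454 and 434 CPM for atxr5/6 gcn5, 821 and 814 for atxr5/6, 345 and 340 for gcn5 and 290 and 300 for wild type. Without the block the mean sum was 2.77 times that of wild type in atxr5/6, 1.16 times in gcn5 and 1.51 times in atxr5/6 gcn5.

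**Figure D1:**
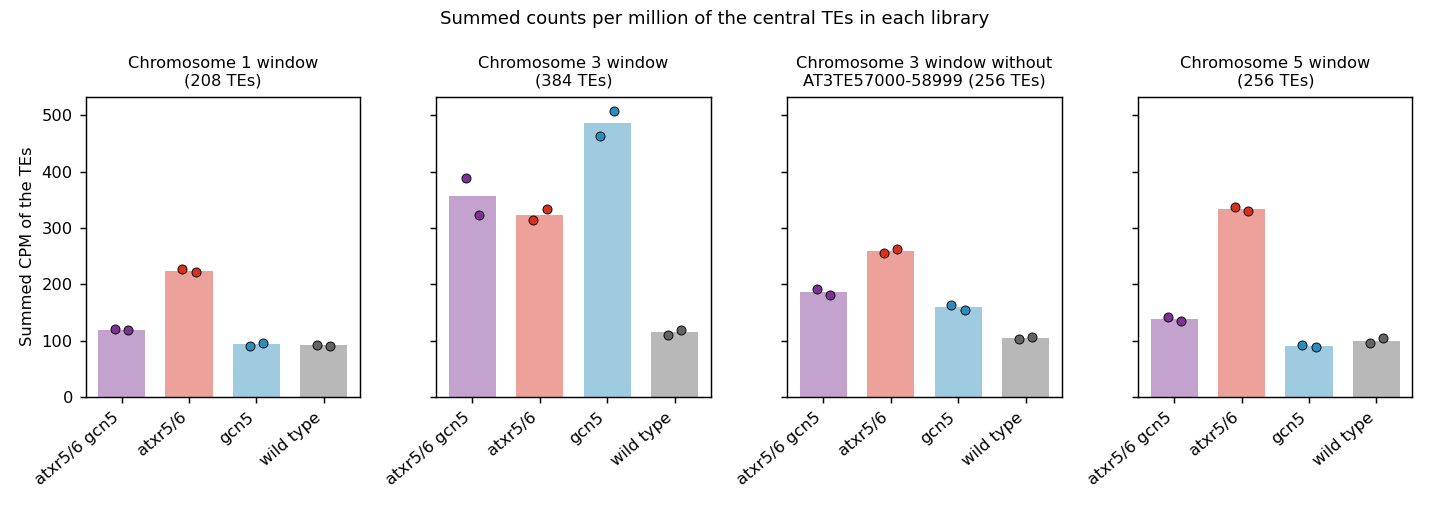
Summed CPM of the central TEs of each window, with a bar for the mean and a point for each of the 2 libraries of a genotype; the chromosome 3 window is drawn with and without the block AT3TE57000 to AT3TE58999. In the chromosome 1 and chromosome 5 windows the atxr5/6 libraries stood highest, at 221 to 227 CPM and 330 to 338 CPM, while the chromosome 3 window was highest in gcn5 at 464 and 508 CPM, and at 163 and 155 CPM in gcn5 once the block was left out.

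With the block set aside, atxr5/6 had the highest sum in each of the 3 windows. On chromosome 1 the sum was 120 and 118 CPM for atxr5/6 gcn5, 227 and 221 for atxr5/6, 89.7 and 96.3 for gcn5 and 92.8 and 90.1 for wild type. On chromosome 5 it was 142 and 135 CPM for atxr5/6 gcn5, 338 and 330 for atxr5/6, 92.5 and 89.0 for gcn5 and 95.4 and 104 for wild type. On chromosome 3 without the block it was 192 and 181 CPM for atxr5/6 gcn5, 256 and 263 for atxr5/6, 163 and 155 for gcn5 and 102 and 107 for wild type. In each of these 3 sets both atxr5/6 libraries lay above both atxr5/6 gcn5 libraries, which lay above the wild-type libraries. The gcn5 libraries overlapped wild type on chromosome 1, lay below it on chromosome 5 and above it on chromosome 3. The chromosome 3 difference was not spread evenly. AT3TE60000 to AT3TE60999, which holds AT3TE60870, alone had a mean sum of 64.1 CPM in gcn5 against 19.8 in wild type.

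The first comparison, atxr5/6 against wild type, asked how loss of the ATXR5 and ATXR6 methyltransferases changed central TE transcripts. A filter on low counts left 355 of the 848 TEs for the test, fitted with edgeR over all 1540 TEs that passed it. Of the 355, 203 were higher in atxr5/6 (57.2%), 7 were lower and 145 did not pass the adjusted p threshold of 0.05. Among all 1540 TEs tested, 26.8% were higher and 4.22% lower. The tested members passed the filter largely through the genotypes where they were high, so their count is a description of these 355 and not of the 848. On the same chromosomes outside the windows 57 of 670 tested TEs were higher (8.51%), and on chromosomes 2 and 4 it was 152 of 515 (29.5%). The difference between these sets was not tested. The median log2 fold change over the 355 was 3.50, or 2.00 with TEs absent in one group set to their bound, against 0.24 over all TEs tested on either reading.

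Over all 848 central TEs, which include those left out by the low-count filter, both atxr5/6 libraries lay above both wild-type libraries for 520 (61.3%) and below them for 53 (6.25%). The 848 were themselves kept by their counts summed over the 8 libraries, and many passed through the genotypes where they were high, so this count is a description. Over all 3461 TEs of the table with 10 or more counts, both atxr5/6 libraries lay above for 41.9% and below for 14.4%. Over the 2613 that are not central they lay above for 35.6% and below for 17.1%.

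**Figure D2:**
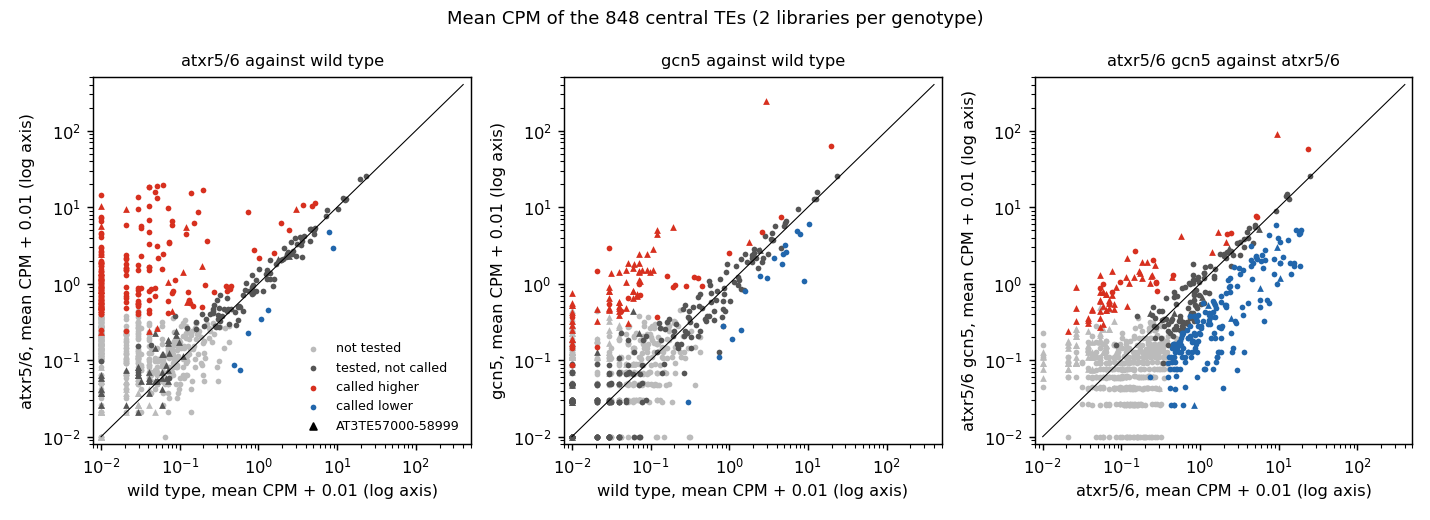
Mean CPM over 2 libraries of each of the 848 central TEs, plus 0.01, on log axes, with atxr5/6 against wild type, gcn5 against wild type, and atxr5/6 gcn5 against atxr5/6; triangles are the TEs of AT3TE57000 to AT3TE58999, and the line marks equal levels. Of the 203 TEs called higher in atxr5/6, 168 lie at the left of the first panel, at 3 counts or fewer in each wild-type library, and the 176 TEs called lower in atxr5/6 gcn5 lie under the line of the third panel.

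Of the 203 TEs called higher in atxr5/6, most lay at or near the floor in gcn5 as well as in wild type. The median level of the 203 was 0.348 CPM for atxr5/6 gcn5, 1.05 for atxr5/6, 0.0203 for gcn5 and 0.0109 for wild type. At 3 counts or fewer in each library were 24 of them in atxr5/6 gcn5, none in atxr5/6, 154 in gcn5 and 168 in wild type. The order was not shared by all. Those on chromosome 3 summed highest in gcn5, at 240 and 320 CPM. There the sums were 172 and 141 CPM for atxr5/6 gcn5, 190 and 199 for atxr5/6 and 8.56 and 10.2 for wild type. The call used atxr5/6 and wild type, and the sum of counts, the low-count filter and the fitted spread used all 8 libraries, so these values are a description of the chosen TEs.

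On chromosome 1, 55 of 86 tested TEs were higher in atxr5/6 and none was lower. AT1TE45380 had 1.47 and 1.16 CPM in atxr5/6 gcn5, 14.2 and 14.6 CPM in atxr5/6, and no count in gcn5 or wild type. The atxr5/6 libraries were high, the atxr5/6 gcn5 libraries intermediate, and no group overlapped another apart from the shared 0. Against the floor of 3 counts per library AT1TE45380 was at least 124-fold higher in atxr5/6 than in wild type (adjusted p 9.06e-09). AT1TE49260 had 2.84 and 2.71 CPM for atxr5/6 gcn5, 6.87 and 6.56 for atxr5/6, 0.0405 and 0.0376 for gcn5 and 0.0218 and 0.0385 for wild type. Wild type rested on 1 count in each library, and the ratio of pooled counts was 242 with a 95% counting interval of 66.8 to 2010. Such intervals cover counting error only, since reads without molecular identifiers are not independent molecules. AT1TE54480, at 10.1 and 9.53 CPM in atxr5/6 against 0.0436 and 0.0771 CPM in wild type, gave a ratio of 177 (interval 68.9 to 652). AT1TE51735, at 7.28 and 7.08 CPM in atxr5/6 against no count in wild type, was at least 62.2-fold higher.

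AT1TE45380 lies in the longest run of neighbouring calls, 5 TEs from AT1TE45375 to AT1TE45395, whose other members were chosen after their values were seen. All 5 were higher in atxr5/6 than in wild type and lower in atxr5/6 gcn5 than in atxr5/6. AT1TE45390 had 28 and 31 counts in atxr5/6 gcn5, 455 and 281 counts in atxr5/6, 0 and 3 counts in gcn5, and 0 and 1 count in wild type. The other 4 had no count in any gcn5 or wild-type library. Over all windows the 203 TEs formed 151 runs of calls no more than 25 identifier numbers apart, of which 34 held at least 2 TEs and 86 TEs in all. Neighbouring rows may share one transcript or reads of near-identical copies, and neighbouring calls are not independent.

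On chromosome 3, 85 of 167 tested TEs were higher in atxr5/6 and 3 were lower. Outside the block it was 66 of 102 higher (64.7%), and inside it 19 of 65 (29.2%). AT3TE60425 had 1.6 and 1.81 CPM for atxr5/6 gcn5, 17.9 and 18.9 for atxr5/6, 0 and 0.0376 for gcn5 and 0.0218 and 0.0385 for wild type. Its pooled ratio of atxr5/6 to wild type was 658 (interval 182 to 5440), on 1 count in each wild-type library. AT3TE62685 had 1.86 and 1.47 CPM for atxr5/6 gcn5, 14.8 and 16.0 for atxr5/6, 0.0405 and 0.0752 for gcn5 and 0.0654 and 0.193 for wild type. It was higher in atxr5/6 than in wild type by a log2 fold change of 7.04 with an SE of 0.30 (adjusted p 2.51e-09). AT3TE60430, a neighbour of AT3TE60425, had 593 and 447 counts in atxr5/6 against 0 and 1 in wild type. AT3TE57445, which lies in the block, had 450 and 283 counts in atxr5/6 against 1 and 0 in wild type.

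Among the 3 chromosome 3 TEs that were lower in atxr5/6, AT3TE61000 had 0.457 and 0.424 CPM in atxr5/6 against 1.18 and 1.46 CPM in wild type, a log2 fold change of -1.55 with an SE of 0.34 (adjusted p 0.00284). In atxr5/6 gcn5 AT3TE61000 was at 1.6 and 0.993 CPM, and in gcn5 at 1.30 and 0.902 CPM, so the 2 atxr5/6 libraries were the lowest of the 8. AT3TE64715 had 3 and 2 counts in atxr5/6 against 24 and 16 in wild type, a ratio of 0.117 (interval 0.0361 to 0.297).

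On chromosome 5, 63 of 102 tested TEs were higher in atxr5/6 and 4 were lower. AT5TE42135 had 4.86 and 4.45 CPM for atxr5/6 gcn5, 19.1 and 18.5 for atxr5/6, 0.0405 and 0.113 for gcn5 and 0.0436 and 0.0385 for wild type. AT5TE42710 had 4.63 and 5.38 CPM for atxr5/6 gcn5, 20 and 18.8 for atxr5/6, 0.0810 and 0.15 for gcn5 and 0.0654 and 0.0385 for wild type. In both TEs the atxr5/6 libraries were highest, the atxr5/6 gcn5 libraries next, and gcn5 and wild type lay at 1 to 4 counts. The pooled ratio of atxr5/6 to wild type was 451 for AT5TE42135 (interval 154 to 2190) and 350 for AT5TE42710 (interval 137 to 1290). AT5TE41070 and AT5TE42440 showed the same order, with 17.9 and 18.3 CPM and 12.9 and 13.2 CPM in atxr5/6. Their pooled ratios to wild type were 649 for AT5TE41070 (interval 179 to 5360) and 311 for AT5TE42440 (interval 106 to 1510).

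AT5TE49725 stood against this pattern. It had 1.24 and 0.582 CPM for atxr5/6 gcn5, 3.07 and 2.77 for atxr5/6, 1.3 and 0.865 for gcn5 and 9.07 and 8.55 for wild type. Wild type was highest and atxr5/6 next, with no overlap, while atxr5/6 gcn5 and gcn5 overlapped at the low end. Against wild type its log2 fold change was -1.59 in atxr5/6 (SE 0.23, adjusted p 0.000112), -3.06 in gcn5 (SE 0.27, adjusted p 2.08e-05) and -3.26 in atxr5/6 gcn5 (SE 0.27, adjusted p 3e-06). AT5TE38735, with 11 and 6 counts in atxr5/6 against 24 in each wild-type library, was lower by a log2 fold change of -1.64 (adjusted p 0.0104), a call that was lost without wild type replicate 2, without either atxr5/6 replicate, and with DESeq2.

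**Figure D3:**
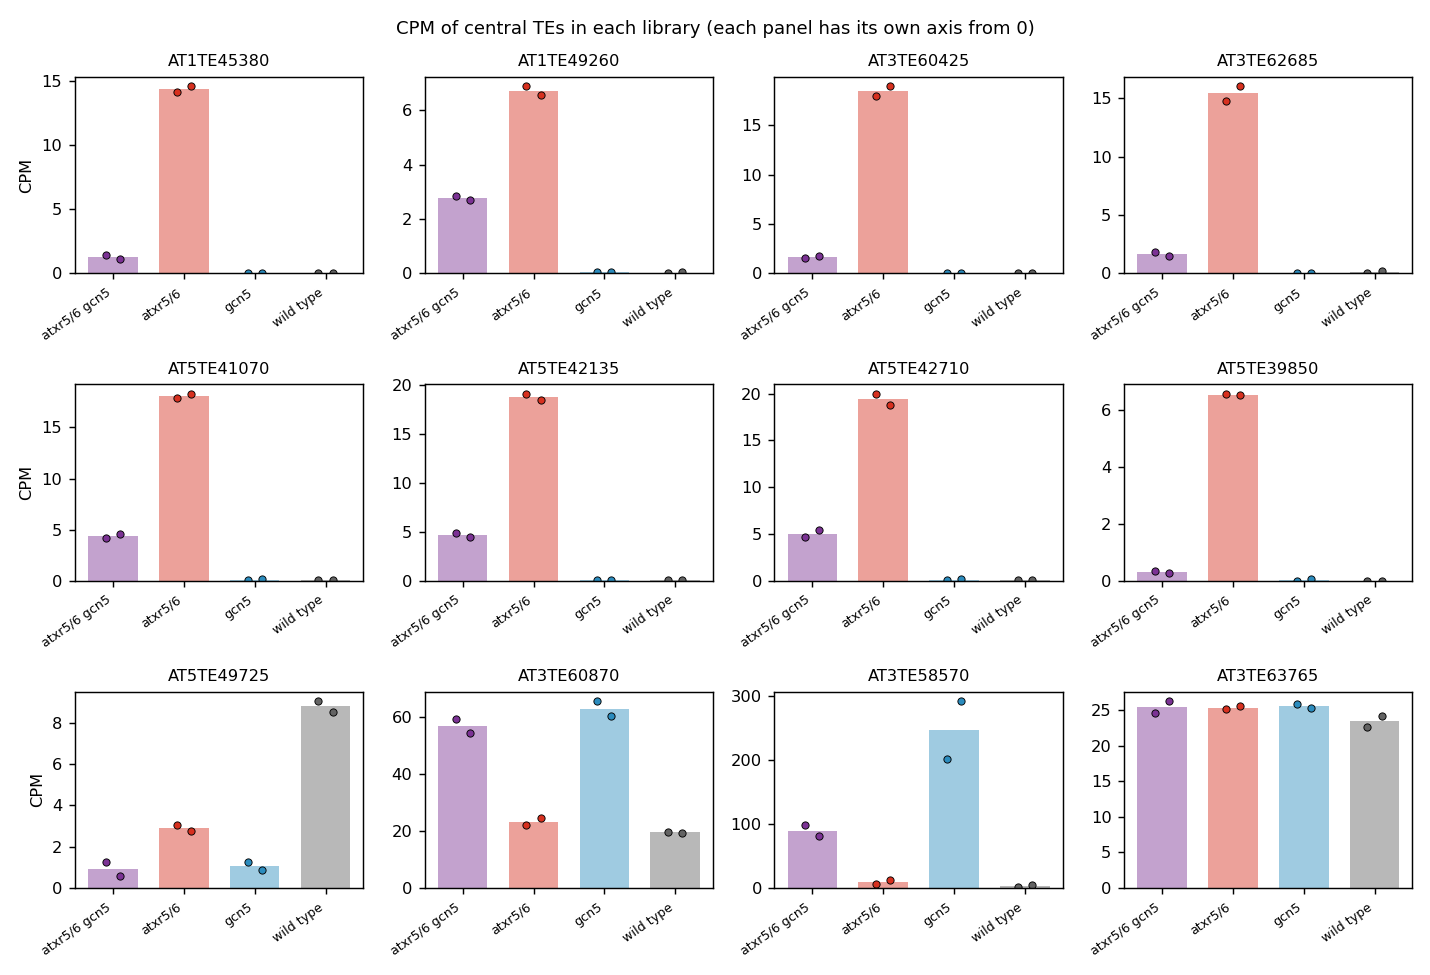
CPM of 12 central TEs, with a bar for the mean and a point for each of the 2 libraries of a genotype, each panel on its own axis from 0. The upper 8 panels share one order, atxr5/6 highest and atxr5/6 gcn5 next with gcn5 and wild type near 0, while AT5TE49725 was highest in wild type, AT3TE60870 and AT3TE58570 were higher in the libraries with the gcn5 label, and AT3TE63765 lay between 22.7 and 26.3 CPM in all 8.

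Calls in atxr5/6 were densest in the middle of the chromosome 1 and chromosome 5 windows. When each window was split into an inner and 2 outer zones of equal width in identifier number, the inner zone of chromosome 1 had 22 of 23 tested TEs higher in atxr5/6 (95.7%), against 33 of 63 in its outer zones (52.4%). The inner zone of chromosome 5 had 37 of 42 (88.1%), against 26 of 60 in its outer zones (43.3%). In the inner zone of chromosome 1 the summed level was 17.8 and 15.3 CPM for atxr5/6 gcn5, 55.3 and 52.6 for atxr5/6, 1.42 and 1.88 for gcn5 and 1.15 and 1.39 for wild type. Its mean was 42.4 times that of wild type in atxr5/6, while in the outer zones of chromosome 1 the factor was 1.88. In the inner zone of chromosome 5 the summed level was 70.6 CPM in both atxr5/6 gcn5 libraries, 210 and 202 CPM in those of atxr5/6, 25.9 and 27.3 in those of gcn5, and 25.4 and 25.8 in those of wild type. With gcn5 and wild type near 0 in the inner zone of chromosome 1, its TEs passed the low-count filter largely through atxr5/6 and atxr5/6 gcn5. The share called higher among tested TEs was thus partly set by the filter and is a description. The zones were defined after values of these TEs were known, and the difference between inner and outer zones was not tested.

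Some stretches were picked because calls were dense there, so their counts are a description only. From AT5TE40500 to AT5TE44499 all 35 tested TEs were higher in atxr5/6 and none was higher in gcn5. The 69 members of that stretch summed to 45.8 and 46.2 CPM for atxr5/6 gcn5, 181 and 172 for atxr5/6, 2.23 and 2.82 for gcn5 and 1.42 and 3.24 for wild type. From AT1TE44000 to AT1TE52999, 40 of 42 tested TEs were higher in atxr5/6, again with none higher in gcn5. The outer zones below and above the inner one had 19 of 32 (59.4%) and 14 of 31 (45.2%) higher on chromosome 1, 22 of 34 (64.7%) and 18 of 40 (45%) on chromosome 3, and 18 of 42 (42.9%) and 8 of 18 (44.4%) on chromosome 5. Each of these shares lay above the 26.8% over all TEs tested, but the 2 sets differ in their wild-type levels. Central TEs lay at 3 counts or fewer in wild type more often than other TEs with 10 or more counts. They passed the low-count filter largely through the genotypes where they were high. The excess over 26.8% was thus partly set by the filter and is a description. The inner zone of chromosome 3 had 45 of 93 tested TEs higher (48.4%), against 40 of 74 in its outer zones (54.1%), and the whole block lies in it.

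**Figure D4:**
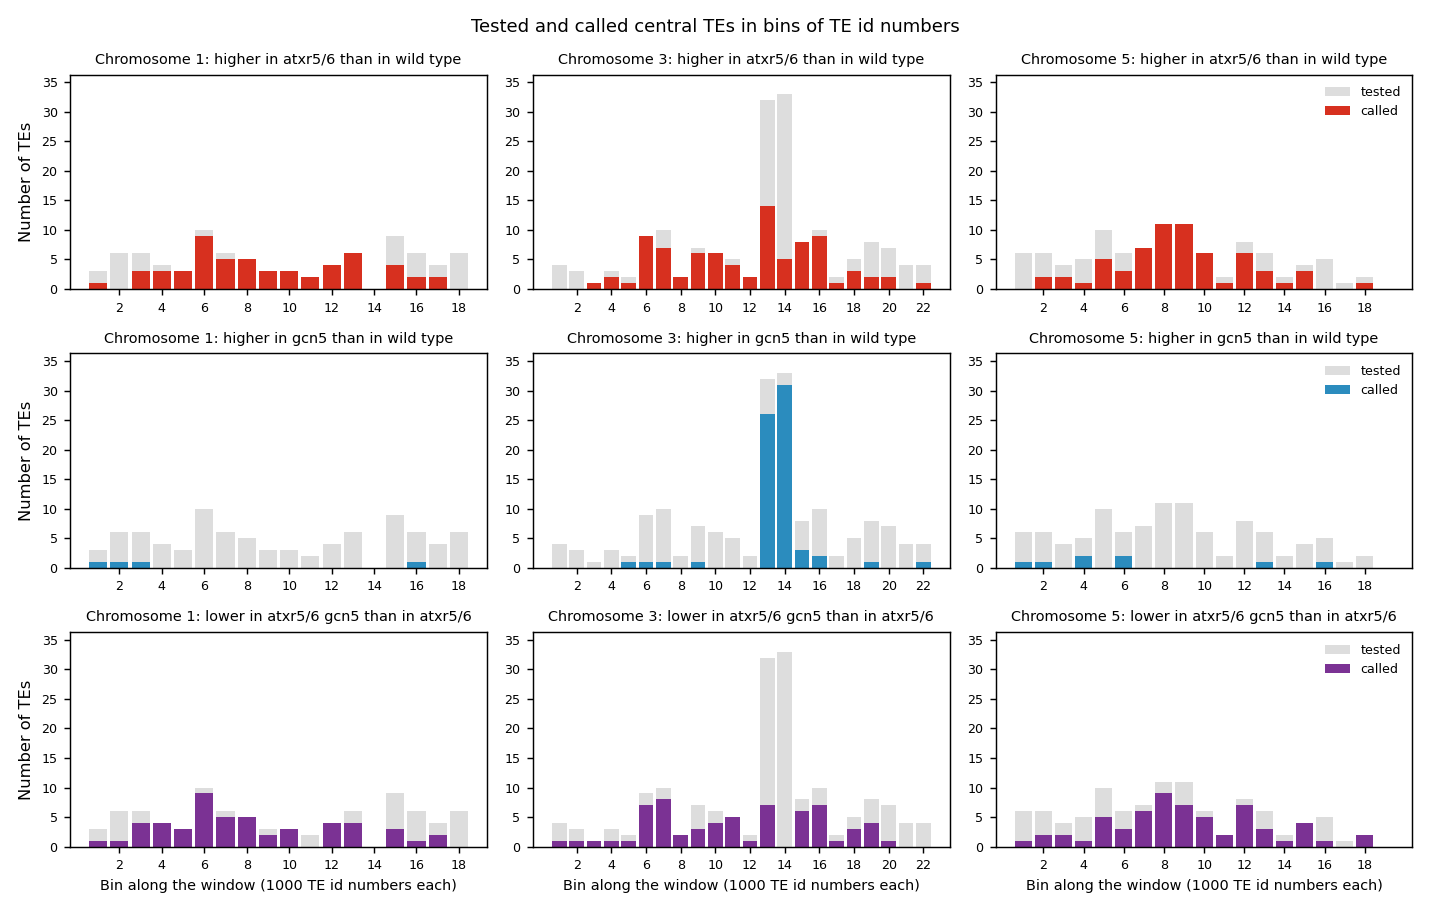
Number of central TEs tested (grey) and called (coloured) in bins of 1000 TE identifier numbers along each window, for TEs higher in atxr5/6 than in wild type, higher in gcn5 than in wild type, and lower in atxr5/6 gcn5 than in atxr5/6; the last bin of a window can be shorter or longer. Calls in atxr5/6 fill the middle bins of chromosomes 1 and 5, and calls higher in gcn5 stand mostly in bins 13 and 14 of chromosome 3, with 26 of 32 and 31 of 33 tested TEs.

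The second comparison, atxr5/6 gcn5 against atxr5/6, asked what loss of GCN5 did in plants that already lacked ATXR5 and ATXR6. It shares the atxr5/6 libraries with the first comparison, so the members' values are given side by side and no overlap is read. Of the 355 tested TEs, 176 were lower in atxr5/6 gcn5 (49.6%) and 68 were higher (19.2%), with 26.6% lower and 13.2% higher among all 1540 TEs tested. Outside the block 169 of 290 were lower (58.3%) and 16 higher, and inside it 7 of 65 were lower and 52 higher (80.0%). Without atxr5/6 replicate 1 the total of calls was 146 in place of 244, with 107 lower and 39 higher. On chromosome 1, 51 of 86 tested TEs were lower and 3 higher, and on chromosome 5, 61 of 102 were lower and 6 higher.

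The TEs lower in atxr5/6 gcn5 by the smallest p in each window were AT1TE45380, AT3TE60425 and AT5TE48725, each with values in the 2 groups that did not overlap. AT1TE45380 was lower by a log2 fold change of -3.44 with an SE of 0.20 (adjusted p 1.16e-06) and AT3TE60425 by -3.43 (SE 0.19, adjusted p 2.95e-07). AT5TE48725 had 1.89 and 1.78 CPM for atxr5/6 gcn5, 10.7 and 10.2 for atxr5/6, 1.90 and 2.41 for gcn5 and 3.73 and 3.70 for wild type. Only the atxr5/6 libraries were above wild type here, and the gcn5 and atxr5/6 gcn5 libraries were below it. Its log2 fold change was -2.51 against atxr5/6 (SE 0.17, adjusted p 1.04e-06) and -1.01 against wild type (SE 0.18, adjusted p 0.000892).

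AT5TE39850 had 0.359 and 0.274 CPM for atxr5/6 gcn5, 6.59 and 6.53 for atxr5/6, 0 and 0.0752 for gcn5, and no count in wild type. It was lower in atxr5/6 gcn5 than in atxr5/6 by a log2 fold change of -4.35 with an SE of 0.31 (adjusted p 1.72e-06), and still at least 2.74-fold higher than in wild type. AT1TE51735 had 0.554 and 0.651 CPM in atxr5/6 gcn5 against 7.28 and 7.08 CPM in atxr5/6, a log2 fold change of -3.57 with an SE of 0.25 (adjusted p 1.72e-06). AT3TE62685 was lower by -3.20 (SE 0.21, adjusted p 6.63e-07).

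Loss of signal was not complete in these TEs. In the 203 TEs called higher in atxr5/6, the sum was 261 and 226 CPM for atxr5/6 gcn5, 563 and 559 for atxr5/6, 258 and 337 for gcn5 and 30.1 and 33.5 for wild type. Most of the gcn5 sum came from the block: on chromosome 1 the same TEs summed to 31.5 and 27.5 CPM for atxr5/6 gcn5, 128 and 123 for atxr5/6, 5.35 and 6.5 for gcn5 and 7.74 and 6.97 for wild type. On chromosome 5 they summed to 57.5 CPM in both atxr5/6 gcn5 libraries, 244 and 237 CPM in those of atxr5/6, 12.6 and 11.2 in those of gcn5, and 13.8 and 16.3 in those of wild type. On both chromosomes the atxr5/6 gcn5 libraries lay between atxr5/6 and the remaining genotypes, without overlap. Because these TEs were chosen by their call in atxr5/6 against wild type, this order is a description only.

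A few central TEs outside the block were higher in atxr5/6 gcn5 than in atxr5/6. AT5TE46580 had 2.35 and 1.64 CPM for atxr5/6 gcn5, 0.196 and 0.294 for atxr5/6, 1.38 and 1.13 for gcn5 and 0.153 and 0.154 for wild type, so the 4 libraries with the gcn5 label were the highest. Its log2 fold change was 3.05 against atxr5/6 (SE 0.35, adjusted p 3.86e-05). AT5TE50045 had 43 and 20 counts in atxr5/6 gcn5, 5 and 2 in atxr5/6, and none in gcn5 or wild type. The atxr5/6 gcn5 libraries were the highest, without overlap. It was at least 8.58-fold higher in atxr5/6 gcn5 than in gcn5, and higher than in atxr5/6 by a log2 fold change of 3.47 with an SE of 0.56 (adjusted p 0.000822).

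The third comparison, gcn5 against wild type, asked what loss of GCN5 did where ATXR5 and ATXR6 were present. Of the 355 tested TEs, 80 were higher in gcn5 (22.5%) and 17 lower (4.79%), with 14.2% higher and 5.58% lower among all 1540 TEs tested. The block held 57 of the 80. Outside it, 23 of 290 tested TEs were higher (7.93%) and 17 lower (5.86%). Chromosome 1 had 4 of 86 higher and 3 lower, and chromosome 5 had 8 of 102 higher and 11 lower. Without wild type replicate 1 the total was 55 calls in place of 97, with 41 higher and 14 lower.

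The TE with the most counts, AT3TE58570, lies in the block. It had 97.7 and 81.6 CPM for atxr5/6 gcn5, 6.02 and 12.7 for atxr5/6, 202 and 292 for gcn5 and 1.92 and 4.01 for wild type. This single TE held 15.0% and 14.2% of all central TE counts in atxr5/6 gcn5, 0.685% and 1.44% in atxr5/6, 31.2% and 42.2% in gcn5, and 0.644% and 1.28% in wild type. The 4 libraries with the gcn5 label were the highest, and the gcn5 libraries lay above the atxr5/6 gcn5 libraries. Its log2 fold change was 6.43 in gcn5 against wild type (SE 0.42, adjusted p 2.36e-06), 3.27 in atxr5/6 gcn5 against atxr5/6 (SE 0.36, adjusted p 2.49e-05) and -1.46 in atxr5/6 gcn5 against gcn5 (SE 0.33, adjusted p 0.0107). The last of these was not called by DESeq2.

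Some other TEs of the block followed the gcn5 label with smaller counts, but the block was not uniform. AT3TE57000 to AT3TE57999 had a mean sum of 32.9 CPM for atxr5/6 gcn5, 39.3 for atxr5/6, 29.9 for gcn5 and 1.21 for wild type. AT3TE58000 to AT3TE58999, which holds AT3TE58570, had 136, 24.5, 297 and 8.77 CPM in the same order. AT3TE57780 had 5.74 and 3.63 CPM for atxr5/6 gcn5, 1.67 and 1.70 for atxr5/6, 7.58 and 3.53 for gcn5 and 0.174 and 0.193 for wild type. AT3TE58020 had 2.90 and 2.19 CPM for atxr5/6 gcn5, 1.41 and 1.40 for atxr5/6, 3.48 and 2.14 for gcn5 and 0.0436 and 0.154 for wild type. Both were higher in gcn5 than in wild type, by log2 fold changes of 4.90 for AT3TE57780 (SE 0.46, adjusted p 2.99e-05) and 4.99 for AT3TE58020 (SE 0.46, adjusted p 2.91e-05). In both, atxr5/6 lay between wild type and gcn5. AT3TE57860 and AT3TE57705 had 46 to 69 and 36 to 52 counts in atxr5/6 gcn5 and 4 to 8 and 5 to 7 counts in atxr5/6. Their log2 fold changes in atxr5/6 gcn5 against atxr5/6 were 3.56 (SE 0.47, adjusted p 0.000107) for AT3TE57860 and 3.19 (SE 0.42, adjusted p 0.000112) for AT3TE57705. The longest run of calls higher in gcn5 held 15 TEs, from AT3TE58530 to AT3TE58660.

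The block sum was higher in the libraries with the gcn5 label than in those without it, as was the share of rDNA features in the gene table. Within wild type, atxr5/6 and atxr5/6 gcn5 the library with the higher share also had the higher block sum. Those block sums were 7.89 and 12.1 CPM in wild type, 58.0 and 69.5 in atxr5/6 and 196 and 142 in atxr5/6 gcn5. Between the gcn5 replicates the block sum and this share went opposite ways, with block sums of 301 and 353 CPM. The part of the rDNA features in the result was not tested. Those 8 features, the ribosomal RNA genes and their neighbours on chromosomes 2 and 3, held 19.4% and 15.0% of gene counts in atxr5/6 gcn5, 0.877% and 2.37% in atxr5/6, 21.6% and 13.3% in gcn5, and 0.293% and 0.644% in wild type. Without AT3TE58570 the block summed to 98.6 and 60.1 CPM for atxr5/6 gcn5, 52.0 and 56.8 for atxr5/6, 99.1 and 61.1 for gcn5 and 5.97 and 8.05 for wild type. In gcn5 and in atxr5/6 gcn5 replicate 1 was the higher library in the rDNA share and in this sum without AT3TE58570. AT3TE58570 itself was higher in replicate 2 of gcn5. In atxr5/6 the mean block sum without AT3TE58570 was 7.76 times that of wild type. The rDNA share was also higher in atxr5/6 than in wild type, at 0.877% and 2.37% against 0.293% and 0.644%.

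**Figure D5:**
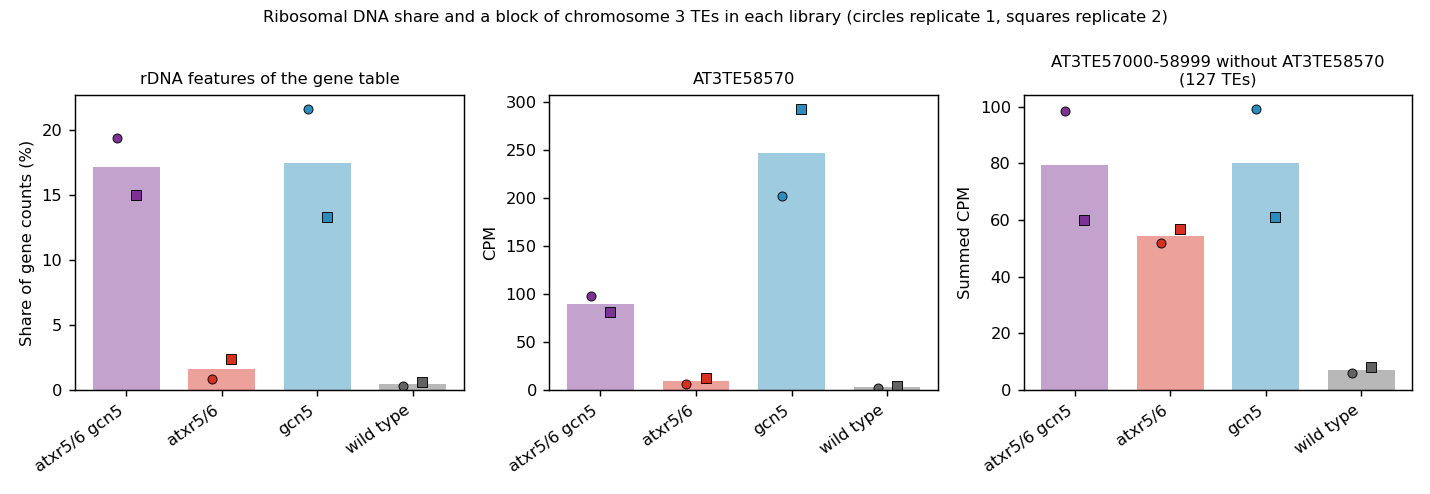
Share of gene counts in 8 rDNA features (left), CPM of AT3TE58570 (middle) and summed CPM of the other 127 TEs of AT3TE57000 to AT3TE58999 (right), with a bar for the mean and a point for each of the 2 libraries of a genotype. The rDNA share and AT3TE58570 were high in the 4 libraries with the gcn5 label, and the other 127 TEs also stood above wild type in atxr5/6, at 52.0 and 56.8 CPM against 5.97 and 8.05 CPM in wild type.

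Outside the block the TEs called in gcn5 were scattered. AT3TE60870, the TE with the second most counts, had 59.3 and 54.2 CPM for atxr5/6 gcn5, 21.9 and 24.5 for atxr5/6, 65.5 and 60.2 for gcn5 and 19.7 and 19.3 for wild type. The 4 libraries with the gcn5 label were the highest, with no overlap with the other 4. It was higher in gcn5 than in wild type by a log2 fold change of 1.69 with an SE of 0.14 (adjusted p 1.08e-05) and higher in atxr5/6 gcn5 than in atxr5/6 by 1.29 (SE 0.13, adjusted p 1.82e-05). AT5TE40480 had 115 and 46 counts in atxr5/6 gcn5, 7 and 4 in atxr5/6, 115 and 32 in gcn5, and 0 and 1 in wild type. Its pooled ratio of gcn5 to wild type was 206 (interval 36.4 to 8190). AT1TE40170 had 38 and 21 counts in atxr5/6 gcn5, 3 and 1 in atxr5/6, 22 and 14 in gcn5, and 4 and 1 in wild type, with a log2 fold change of 3.28 in gcn5 (SE 0.60, adjusted p 0.00241).

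AT5TE37665 had 0.359 and 0.411 CPM for atxr5/6 gcn5, 0.174 and 0.294 for atxr5/6, 1.70 and 1.2 for gcn5 and 0.0218 and 0 for wild type. The gcn5 libraries were the highest, and its level in atxr5/6 gcn5 was lower than in gcn5 by a log2 fold change of -1.90 with an SE of 0.39 (adjusted p 0.00619). Among the TEs lower in gcn5, AT5TE48740 had 0.228 and 0.137 CPM for atxr5/6 gcn5, 1.30 and 1.40 for atxr5/6, 0.324 and 0.15 for gcn5 and 1.48 and 1.31 for wild type. Its log2 fold change was -2.56 in gcn5 against wild type (SE 0.39, adjusted p 0.000787), while the difference between atxr5/6 gcn5 and wild type was -2.91 (SE 0.40, adjusted p 0.000151). AT1TE42900 and AT1TE43120 were lower in gcn5 by log2 fold changes of -0.79 (adjusted p 0.0039) and -1.37 (adjusted p 0.00499). The calls in gcn5 of AT1TE41000, AT1TE42250, AT1TE55920, AT3TE45385 and AT3TE51150 were each lost without wild type replicate 1, and all but that of AT1TE55920 also without a gcn5 replicate and with DESeq2. Those of AT1TE41000 and AT1TE42250 were also lost with library totals only and with TE-based scaling, and that of AT1TE42250 under further settings.

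The fourth comparison, atxr5/6 gcn5 against wild type, had 226 of 355 tested TEs higher (63.7%) and 24 lower (6.76%), with 29.6% higher and 9.35% lower among all 1540 TEs tested. Outside the block 163 of 290 were higher (56.2%) and 24 lower. AT5TE42135 and AT5TE42710 had the smallest p, with pooled ratios to wild type of 112 (interval 37.8 to 544) for AT5TE42135 and 89.7 (interval 34.7 to 331) for AT5TE42710. Next to AT5TE49725 and AT5TE48740, AT5TE38735 was among the lower TEs, with 2 and 1 counts in atxr5/6 gcn5 against 24 in each wild-type library and a ratio of 0.075 (interval 0.0149 to 0.233). With only the compared genotypes in the fit, the total was 147 calls in place of 250, from 212 tested TEs.

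The fifth comparison, atxr5/6 gcn5 against gcn5, asked whether loss of ATXR5 and ATXR6 still raised central TEs where GCN5 was lost. Of the 355 tested TEs, 113 were higher in atxr5/6 gcn5 (31.8%) and 3 lower (0.845%), with 11.3% higher and 1.49% lower among all 1540 TEs tested. In the block it was 6 of 65 higher and 2 lower. AT5TE42710 had a log2 fold change of 5.37 with an SE of 0.30 (adjusted p 2.02e-07), and AT5TE42135 a pooled ratio of 59.7 (interval 23.1 to 221). Besides AT5TE37665 and AT3TE58570, the remaining lower TE was AT3TE58760, with 0.359 and 0.514 CPM in atxr5/6 gcn5 against 1.42 and 1.80 CPM in gcn5, a log2 fold change of -1.88 with an SE of 0.43 (adjusted p 0.0123) that was lost without gcn5 replicate 2. Without gcn5 replicate 2 the total was 72 calls in place of 116. DESeq2 gave 75 calls.

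The effect of atxr5/6 could be set side by side with and without GCN5 in comparisons that share no library. Of the 203 TEs higher in atxr5/6 than in wild type, 112 were also higher in atxr5/6 gcn5 than in gcn5 (55.2% of the first list and 99.1% of the second). In all, 180 of the 203 had a positive log2 fold change in the second comparison, against 341 of 412 among all 1540 TEs tested. Across the 355 tested TEs the log2 fold changes of the 2 comparisons had a Pearson correlation of 0.81, against 0.82 across all 1540, as a description over TEs that share libraries and depth within each comparison. Among all 1540 TEs tested the lists shared 169 of 412 (41.0%) and of 174 (97.1%).

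In summed level, the difference made by atxr5/6 was smaller where GCN5 was mutated too. Outside the block, atxr5/6 exceeded wild type by 522 CPM in summed level, and atxr5/6 gcn5 exceeded gcn5 by 101 CPM, which is 19.3% of the first difference. The same percentage was 19.6% on chromosome 1 (26.0 against 133 CPM), 17.9% on chromosome 3 without the block (28 against 156 CPM) and 20.6% on chromosome 5 (48.2 against 234 CPM). Inside the block and without AT3TE58570, the sums of atxr5/6 gcn5 and gcn5 differed by -0.8 CPM. These sums have no test.

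The effect of gcn5 could likewise be set side by side with and without ATXR5 and ATXR6. Of the 80 TEs higher in gcn5 than in wild type, 61 were higher in atxr5/6 gcn5 than in atxr5/6 (76.2% of the first list and 89.7% of the second). Among all 1540 TEs tested it was 132 of 218 (60.6%) and of 203 (65.0%), and without the block it was 10 of 23 and of 16. Of the 17 TEs lower in gcn5, 13 were also lower in atxr5/6 gcn5 than in atxr5/6 (76.5%), against 56 of 86 (65.1%) among all TEs tested. The 2 comparisons had a Pearson correlation of 0.58 across the 355 TEs, 0.23 across the 290 outside the block and 0.47 across all 1540.

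The interaction, the change between atxr5/6 gcn5 and atxr5/6 minus the change between gcn5 and wild type, tested whether the 2 effects add on the log scale. It was called for 33 of the 355 tested TEs, 32 negative and 1 positive, with 4.42% negative and 0.519% positive among all 1540 TEs tested. In 10 of the 33 a genotype had no count in either library and in 18, these 10 included, a genotype lay at 3 counts or fewer in each library, so their fitted values depend on the prior count, and 15 had neither. Without wild type replicate 1 or 2 the calls numbered 10 and 15, without atxr5/6 replicate 1 or 2 they numbered 13 and 11, and without gcn5 replicate 2 they numbered 17.

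Among those 15, AT5TE43315 had 1.21 and 1.44 CPM for atxr5/6 gcn5, 9.83 and 7.67 for atxr5/6, 0.365 and 0.301 for gcn5 and 0.131 and 0.193 for wild type. The 4 genotypes did not overlap, and the interaction was -3.82 on the log2 scale (SE 0.52, adjusted p 0.00281). AT5TE48715, AT5TE48720 and AT5TE48725, of which the first pair was chosen after their values were seen, are neighbours with interactions of -1.50, -2.11 and -1.73 on the log2 scale. AT5TE48720 had 1.92 and 1.23 CPM for atxr5/6 gcn5, 5.72 and 6.76 for atxr5/6, 2.67 and 1.58 for gcn5 and 2.00 and 1.81 for wild type, so that the atxr5/6 libraries stood alone above the rest. AT3TE58895 had 7.46 and 2.94 CPM for atxr5/6 gcn5, 4.98 and 6.14 for atxr5/6, 5.75 and 4.25 for gcn5 and 0.0654 and 0.154 for wild type. All 3 mutants overlapped there, and wild type alone was low, with an interaction of -5.70 (SE 0.69, adjusted p 0.00152). The 1 positive call, AT3TE61000 at 1.79 (SE 0.47, adjusted p 0.0485), was lost without either wild-type replicate, either atxr5/6 replicate, gcn5 replicate 2 or atxr5/6 gcn5 replicate 1, with DESeq2 (adjusted p 0.158) and with organelle and rRNA genes left out of the scaling (adjusted p 0.0502).

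Some of the most counted central TEs passed no test. AT3TE63765 had 24.6 and 26.3 CPM for atxr5/6 gcn5, 25.1 and 25.6 for atxr5/6, 25.9 and 25.3 for gcn5 and 22.7 and 24.2 for wild type. AT5TE46635 lay between 12.8 and 16.1 CPM and AT1TE41800 between 12 and 14.8 CPM in the 8 libraries. None of the 3 was called in any of the 6 tests. A p above the threshold does not show that their levels were equal. The 20 TEs with the most counts held 44.8% and 47.9% of central TE counts in atxr5/6 gcn5, 28.8% and 29.2% in atxr5/6, 59.6% and 67.9% in gcn5, and 46.8% and 44.2% in wild type.

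Genes near the same centromeres and genes of the silencing machinery were read from the gene table. The locus numbers AT1G36000 to AT1G43999, AT3G30000 to AT3G43999 and AT5G28000 to AT5G35999 held 220 tested genes, of which 31 were higher in atxr5/6 than in wild type (14.1%) and 14 lower (6.36%). Among all 19591 genes tested, 5.51% were higher and 7.64% lower. In gcn5 against wild type 42 were higher and 50 lower, with 17.9% and 19.5% among all genes. In atxr5/6 gcn5 against atxr5/6 25 were higher and 62 lower (28.2%), with 17.9% and 18.3% among all genes.

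ATXR5 itself had 0.228 and 0.171 CPM for atxr5/6 gcn5, 0.783 and 0.849 for atxr5/6, 1.94 and 2.07 for gcn5 and 3.27 and 3.20 for wild type, with a log2 fold change of -1.99 in atxr5/6 (SE 0.19, adjusted p 0.00138). ATXR6 had 0.217 and 0.196 CPM in atxr5/6 against 0.458 and 0.462 CPM in wild type (adjusted p 0.0856), and HAG1, the gene of GCN5, lay between 4.24 and 6.10 CPM in the 8 libraries. The levels of ATXR6 and HAG1 thus did not separate the genotypes as labelled, and those labels were not checked by them. Of a list of 24 silencing genes 23 were tested, and 5 were higher in atxr5/6 than in wild type and 1, ATXR5, was lower. Among all 19591 genes tested 5.51% were higher and 7.64% lower.

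Those 5 were MET1, the maintenance methyltransferase of CG sites, SUVH4, a methyltransferase of histone H3 lysine 9, and NRPD1, RDR2 and DCL3, which make the small RNAs that direct DNA methylation. RDR2 had 4.47 and 4.76 CPM for atxr5/6 gcn5, 7.59 and 8.42 for atxr5/6, 4.38 and 3.61 for gcn5 and 4.66 and 4.47 for wild type. The atxr5/6 libraries stood alone above the rest, with log2 fold changes of 0.80 against wild type (SE 0.13, adjusted p 0.00904) and of -0.79 in atxr5/6 gcn5 against atxr5/6 (SE 0.13, adjusted p 0.00326). MET1 had 12.3 and 13.3 CPM in atxr5/6 against 7.93 and 8.17 CPM in wild type, a log2 fold change of 0.67 with an SE of 0.14 (adjusted p 0.0213). In gcn5 against wild type 9 of the 23 were higher and 1 lower, with 17.9% higher and 19.5% lower among all genes tested. Between atxr5/6 gcn5 and atxr5/6 it was 7 higher and 2 lower, with 17.9% higher and 18.3% lower among all genes tested. NRPE1, the largest subunit of RNA polymerase V, had 18.2 and 20.1 CPM for atxr5/6 gcn5, 8.70 and 11.5 for atxr5/6, 16.9 and 19.9 for gcn5 and 8.67 and 7.59 for wild type, so the 4 libraries with the gcn5 label were the highest.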

How the data were processed

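Read counts per TE and per gene were deposited by the authors as whole numbers, with no normalization, for 8 leaf RNA libraries made with a stranded total RNA kit after rRNA depletion, per the labels. STAR 2.7.2a, featureCounts 1.6.4, DESeq2 1.26, Bowtie2, Picard and the builds TAIR10 and dm6 are named without role or order in the submitters' processing notes. How strand and reads with several positions were counted is not given in the sources used here, so near-identical TE copies may share or split reads and overlapping features cannot be told apart. The other 24 samples, which are chromatin libraries, were not analysed here. The members and lists were chosen with earlier results of these data known.

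Both tables were fitted whole with edgeR 4.0.16 (quasi-likelihood test) in R 4.3.3 over the 8 libraries, after filterByExpr with a minimum count of 10, and called at a Benjamini-Hochberg adjusted p under 0.05. TE libraries were scaled by gene totals times TMM factors of the gene table, and CPM uses the same sizes. The fit had 4 residual degrees of freedom and a common biological coefficient of variation of 0.156 for TEs. Ratios of pooled counts have exact 95% counting intervals, and a group without counts was set to 3 counts per library. The 2 libraries of each genotype differed beyond sampling noise over TEs (chi-square divided by its degrees of freedom, 1.3 to 2.82). TEs were named by smallest adjusted p among non-overlapping calls, up to 4 higher and 2 lower per window in the first 3 comparisons and up to 3 each way over all windows in the others, with the 5 most counted. For the interaction, non-overlap was not required. TEs outside this rule are marked as chosen after their values were seen. The scripts were checked on simulated data. Alternatives were other scalings, filters, a replicate block, DESeq2 1.42.0 and leaving out each library.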

Additional observations from a re-analysis of the deposited data

Results flagged for a closer look

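For 13 named central TEs the effect of gcn5 differed between plants with and without the atxr5/6 mutations, by the interaction test of edgeR over all TEs. Each value is the log2 change between atxr5/6 gcn5 and atxr5/6 minus the log2 change between gcn5 and wild type.

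In the block AT3TE57000 to AT3TE58999 the values were -4.42 for AT3TE57445 (adjusted p 0.0341), -3.43 for AT3TE57780 (adjusted p 0.00972), -4.14 for AT3TE58020 (adjusted p 0.00281), -3.16 for AT3TE58570 (adjusted p 0.00609) and -5.7 for AT3TE58895 (adjusted p 0.00152). Elsewhere on chromosome 3, AT3TE61000 had 1.79 (adjusted p 0.0485), a call that was lost under several alternatives, DESeq2 among them (adjusted p 0.158).

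On chromosome 5 the values were -1.34 for AT5TE34840 (adjusted p 0.0386), -5.6 for AT5TE37665 (adjusted p 0.00737), -7.83 for AT5TE39850 (adjusted p 0.041) and -3.71 for AT5TE41070 (adjusted p 0.0358). They were -2.98 for AT5TE42710 (adjusted p 0.0386), -3.82 for AT5TE43315 (adjusted p 0.00281) and -1.73 for AT5TE48725 (adjusted p 0.00345). AT5TE39850 had no count in wild type, and AT3TE57445, AT5TE37665, AT5TE41070 and AT5TE42710 had 3 counts or fewer in each wild-type library, so the sizes of these values depend on the prior count.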

How the results depend on the processing

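No result reversed its direction. Without the low-count filter 356 central TEs were called in atxr5/6 against wild type, in place of 210. With a mean of at least 20 counts, which left 149 TEs, the calls were 76 in that comparison, 42 in gcn5 against wild type (29 higher and 13 lower), 103 between atxr5/6 gcn5 and wild type, 96 between atxr5/6 gcn5 and atxr5/6 and 54 in atxr5/6 gcn5 against gcn5. With only the compared genotypes in the fit they were 147 in atxr5/6 gcn5 against wild type and 64 in atxr5/6 gcn5 against gcn5, and that setting was not run for the interaction. DESeq2 gave 75 in atxr5/6 gcn5 against gcn5. Without AT3TE57000 to AT3TE58999, an alternative chosen after seeing the data, gcn5 against wild type had 40 calls (23 higher and 17 lower) and atxr5/6 gcn5 against atxr5/6 had 185 (16 higher and 169 lower).

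Leaving out each library gave 213 to 261 calls in atxr5/6 against wild type, 55 to 109 in gcn5 against wild type, 181 to 283 between atxr5/6 gcn5 and wild type, 146 to 270 between atxr5/6 gcn5 and atxr5/6, 72 to 115 in atxr5/6 gcn5 against gcn5 and 10 to 39 in the interaction. In these fits a genotype left with 1 library is assumed to vary like the others, and the cause of the moves was not tested. Of 1120 values for the named results, 1076 kept their direction and side of the threshold and 44 no longer passed it. With TE-based scaling all TE log2 fold changes moved by a median of -0.15 for atxr5/6, -0.27 for gcn5 and -0.2 for atxr5/6 gcn5, each against wild type, and by 0.22 in the interaction.

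Correlations of deviations between same-numbered libraries lay between -0.192 and 0.21, so the numbers were not taken as pairs, although gcn5 and atxr5/6 gcn5 deviated together (0.21 over TEs and 0.194 over genes). With the replicate block the calls were 212 in atxr5/6 against wild type, 95 in gcn5 against wild type and 247 between atxr5/6 gcn5 and wild type. They were 244 between atxr5/6 gcn5 and atxr5/6, 111 in atxr5/6 gcn5 against gcn5 and 39 in the interaction. With that replicate block AT1TE42250 in gcn5 against wild type no longer passed (adjusted p 0.0557). With 2 libraries per genotype and a median of 34 counts per TE, the low-count filter left 355 of the 848 TEs for the main test.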
